A study of Drosophila melanogaster with 4 samples.

Results

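The X chromosome of Drosophila melanogaster carried 1025 sites at which the Polycomb group protein Sfmbt was enriched in nuclei of adult heads in both of 2 ChIP replicates. They are the X clusters of the combined list that overlap a cluster of each replicate's own list by at least 1 bp. They are 60.6% (95% exact binomial interval 58.2 to 62.9%, counting error only) of the 1692 X clusters in the combined list. Over the whole genome 65.1% of combined-list clusters met this rule, 5493 of 8434. On each of the large autosomal arms 2L, 2R, 3L and 3R the share was above that of the X, at 66.4 to 69.9%. Since the rule itself sets these shares nothing is read from them.

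Sfmbt binds methylated histone tails through its MBT repeats and reaches DNA as the partner of Pho, a sequence-specific DNA-binding protein. Together they form the Pho repressive complex, which sits at Polycomb response elements, the short DNA elements from which Polycomb group proteins keep developmental genes silent. Binding at such elements is usually narrow, whereas the histone methylation that spreads from them is broad. The X differs from the autosomes in dosage, since females carry a pair of X chromosomes and males a single X, whose transcription is raised by the MSL complex.

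Chromatin came from formaldehyde-treated head nuclei of wild-type Oregon-R flies of mixed adult age, raised in population cages, and was precipitated with the antibody Q2642. The series holds 2 ChIP samples and 2 input samples, 1 input per ChIP, and no other genotype or treatment. The labels give no sex, do not say whether the replicates came from separate collections of flies, and name a tissue of many cell types. Each cluster has a start, an end and 1 score, which is the authors' own value for the cluster and lies on a log2 scale, so that a difference of 1 is a factor of 2. What that score is a ratio of is not given, the inputs' own signal was not analysed here, and read depth is unknown. Coordinates are those of FlyBase release 5, in which X positions count from the distal (telomeric) end. With 2 replicates and no second condition, all comparisons are descriptions with the SD over the replicates (n = 2), and none carries a test. Bulk chromatin cannot tell a site bound in few cells from one bound weakly in many.

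The number of Sfmbt clusters changed 2.65-fold along the X, while their typical strength hardly changed. Over the whole arm they lay at 45.7 clusters per Mb and covered 17.9% of the sequence, and the replicates' own lists, with 1249 and 1287 X clusters, covered 16.2% ± 0.0044 (SD, n = 2). The 22 full bins of 1 Mb held 26 to 69 clusters each, with a median of 49.5. The median score of a bin ran only from 0.81 to 1.03. Bins with many clusters were thus not bins of stronger clusters, and the Spearman correlation between number and median score over the 22 bins was -0.076, given as a description. The covered share of a bin ran from 10.7% to 27.7% and followed the number of clusters (Spearman 0.919), while the median width, between 2756 and 3960 bp, did not (0.062).

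**Figure D1:**
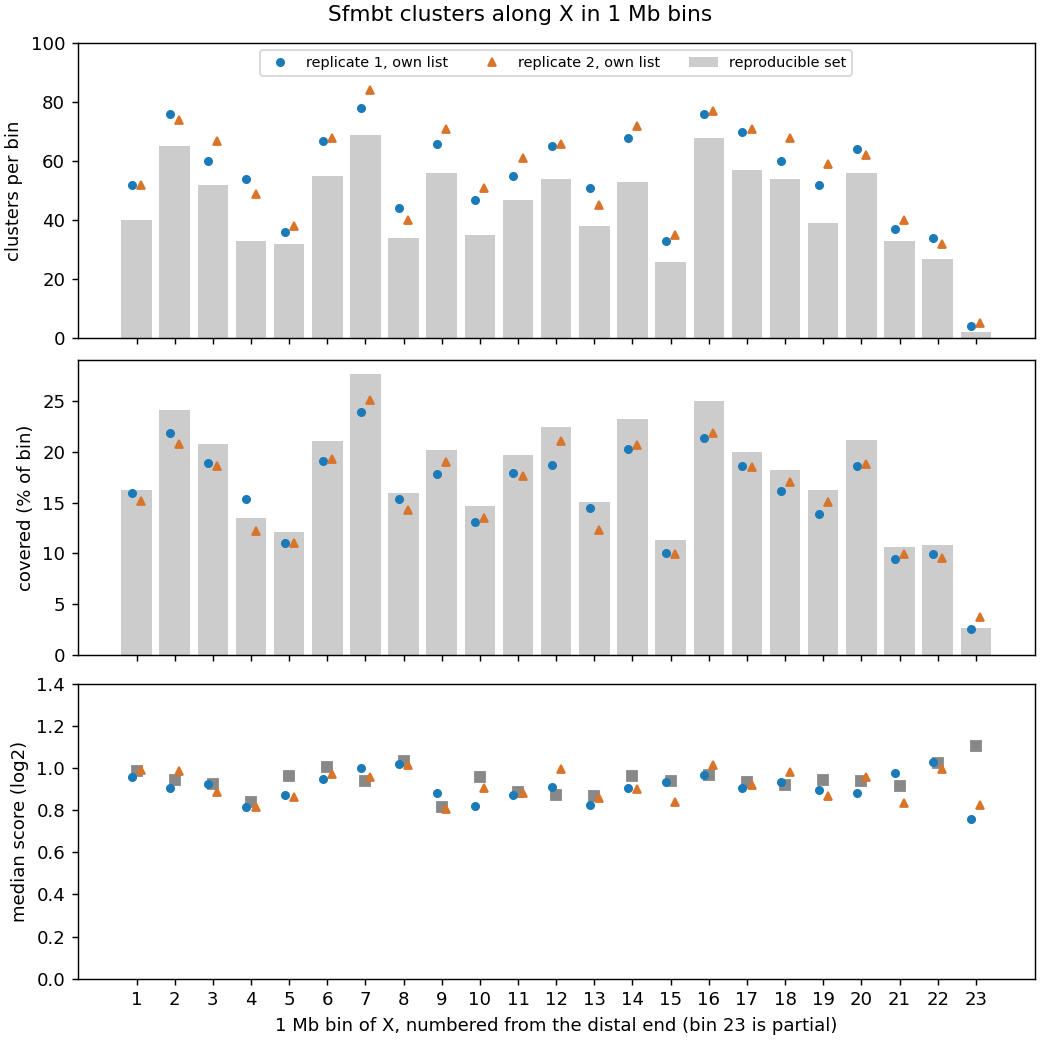
Clusters per bin (top), share of the bin covered in percent (middle) and median log2 score (bottom) for each 1 Mb bin of X, numbered from the distal end. Bars and grey squares are the reproducible set, circles and triangles the own lists of replicates 1 and 2. Counts rise and fall between 26 and 69 over the full bins and the replicates follow the same course, while the median scores of full bins stay between 0.81 and 1.03.

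The same landscape appeared in each replicate's own list. Over the 22 bins the Spearman correlation between the replicates was 0.974 for the number of clusters and 0.951 for the covered share. It was lower, at 0.596, for the median score, which varied little along the arm. The SD between replicates of the number in a bin was at most 5.66 clusters, with a median of 2.47, against an SD of 13.9 in replicate 1 and 15.1 in replicate 2 across bins. The differences along the arm were therefore larger than those between the replicates.

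Clusters were most crowded in bin 7, from 6000001 to 7000000. It held 69 reproducible clusters that covered 27.7% of the bin, and the replicates' own lists held 78 and 84. Bin 16, from 15000001 to 16000000, came next with 68 reproducible clusters, and 76 and 77 in the replicates. Bin 2, from 1000001 to 2000000, held 65, with 76 and 74 in the replicates. Bin 17, the neighbour of bin 16, held 57. Bin 9 and bin 20 held 56 each, of which bin 9, from 8000001 to 9000000, comes first by position. Bin 9, though among the fullest, had the lowest median score of all full bins in the reproducible set, 0.81. In the replicates' own lists its median was 0.85 ± 0.054 (SD, n = 2), and bins 4 and 13 were lower with 0.81 ± 0.0007 and 0.84 ± 0.024. Bin 9 was the lowest full bin in replicate 2, with 0.81, but not in replicate 1, with 0.88 against 0.81 in bin 4.

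The emptiest full bin was bin 15, from 14000001 to 15000000, with 26 reproducible clusters, 33 in replicate 1 and 35 in replicate 2. It lay directly beside bin 16, so that the number rose from 26 to 68 across a single bin border. Bin 22, from 21000001 to 22000000, had 27, bin 5, from 4000001 to 5000000, had 32, and bins 4 and 21 had 33 each. The partial last bin, 0.423 Mb long and at the centromeric end of the X sequence, held 2 reproducible clusters that covered 2.68% of it. The replicates' own lists had 4 and 5 there. The combined list had 12 clusters in that last bin, of which 10 were outside the reproducible set.

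The bins with the highest median scores were not the fullest ones. Bin 8, from 7000001 to 8000000, had a median of 1.03 with 34 clusters, and the replicates' own medians were 1.02 and 1.02. It also had the widest clusters, with a median of 3960 bp. Bin 22 followed with 1.02 and 27 clusters, and with 1.03 and 1.00 in the replicates. Bin 6, from 5000001 to 6000000, had 1.00, bin 1 had 0.99 and bin 16 had 0.97. Of these 5 bins, bin 16 alone was also among the 5 fullest.

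At a finer scale, the 224 full windows of 100 kb held a mean of 4.57 clusters and a median of 4. The highest number was 13, in the window from 19500001 to 19600000. Clusters covered 50.5% of that window, and the replicates had 16 and 14 there. The window from 6600001 to 6700000 held 12. Another 7 windows held 11, of which the first by position start at 1700001, 1900001 and 2000001. The last pair adjoin, and clusters covered 47.7% and 44.2% of them. At the other end, 22 windows (9.82%) held no reproducible cluster, and 9 of these held no cluster of either replicate's own list. Without replicate 2 required 13 windows were empty, as in replicate 1's own list, and with all combined-list clusters 4 were.

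Scores on the X were shifted upward, and between the 5% and the 90% point of the reproducible set the shift was smaller at the 90% point than at the 5% point. In the reproducible set the 5% point of the scores was 0.55 on the X and 0.35 to 0.36 on 2L, 2R, 3L and 3R, the 4 large autosomal arms. The lower quartile was 0.73 against 0.52 to 0.55, and the upper quartile 1.15 against 0.96 to 0.99. At the 90% point the gap had narrowed to 1.34 against 1.21 to 1.27. At the top the gap was wide again, since the highest X score was 3.45 and the highest on the arms ran from 2.15 to 2.60.

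The shift was also present among X clusters that the rule left out. The 667 X clusters of the combined list without a partner in both replicates had a median score of 0.50, against 0.35 to 0.37 for such clusters on the 4 arms. The lowest of them scored 0.21 on the X and 0.11 to 0.14 on the arms. In replicate 1's own list the 5% point was 0.53 on the X and 0.38 to 0.41 on the arms, and in replicate 2's list it was 0.58 against 0.38 to 0.39. Weak clusters on the X thus scored higher than weak clusters elsewhere in all 3 lists. In replicate 1's own list the X lay 0.13 to 0.15 above the arms at the 5% point. It lay 0.15 to 0.18 above them at the median and 0.068 to 0.12 at the 90% point. In replicate 2's list these values were 0.18 to 0.20, 0.20 to 0.22 and 0.14 to 0.19. The narrowing toward the 90% point was thus less clear in replicate 2, where the ranges at the 5% and 90% points overlapped.

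Every full bin of the X took part. The median score of each of the 22 bins was above 0.74, the median over the 95 full bins of the 4 arms. Of the 95 arm bins, 12 (12.6%) lay above the lowest X bin, and 2 lay above the median X bin. By the replicates' own lists all 22 X bins were again above the middle arm bin, which was 0.75 in replicate 1 and 0.71 in replicate 2. No full bin of the X was at the level of the middle autosomal bin.

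**Figure D2:**
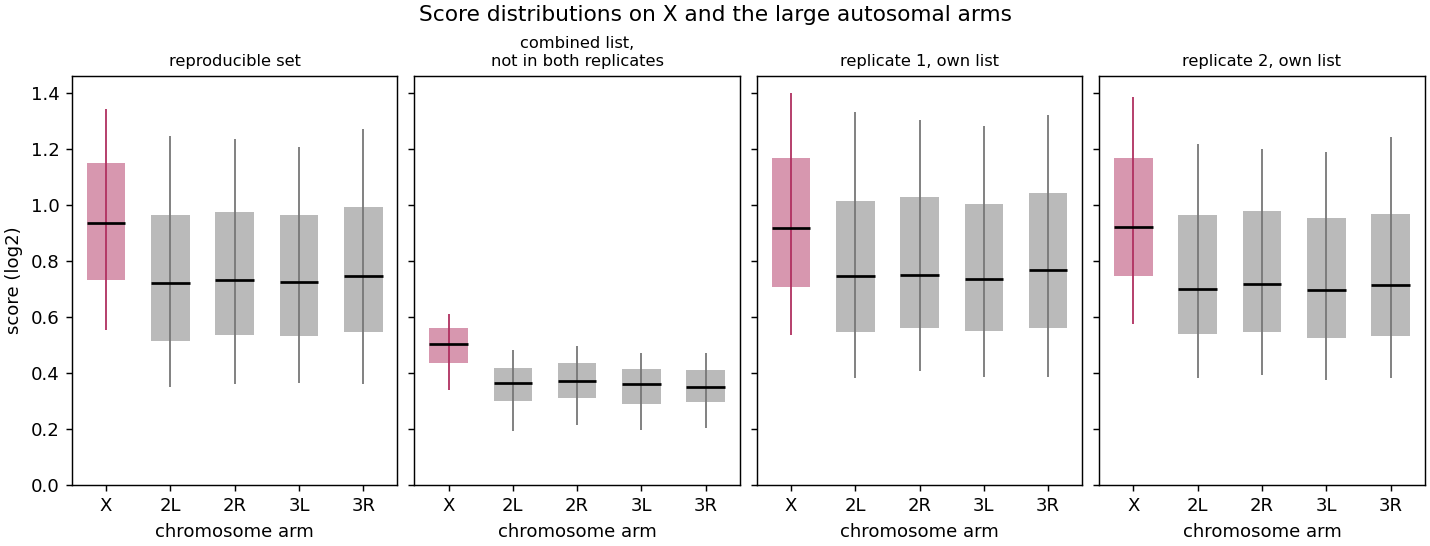
Log2 scores on the X (coloured) and the 4 large autosomal arms (grey) in the reproducible set, in the combined-list clusters outside it and in each replicate's own list. Boxes run from the lower to the upper quartile, black lines are medians and thin lines run from the 5% to the 90% point. The X lies above every arm in each panel, and in the reproducible set by less at the 90% point (1.34 against 1.21 to 1.27) than at the 5% point.

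Measured from its own middle, the X had a smaller share of strong clusters than the autosomal arms. Strong clusters are here the 102 X members with the highest combined scores, the top 10%, which begins at 1.34, with the next member below also at 1.34. That limit lies 0.41 above the X median. In the reproducible set the X share is thus near 10% by definition, and only the arm shares were free to vary. Members more than that step above their own arm's median, which leaves out the X member on the limit itself, made up 9.85% on the X and between 13.9% (3L) and 15.4% (2L) on the arms. With the X limit applied unchanged to all arms, and the member on it counted, the order turned, with 9.95% on the X and 5.25 to 7.63% on the arms. In the replicates' own lists the share past the arm median by 0.41 was 13.9% on the X in replicate 1, against 16.3 to 16.8% on the arms, and 13.1% in replicate 2, against 14.0 to 16.0%. Whether the X had the larger or the smaller share of strong clusters thus depended on where strength was counted from.

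The very strongest sites were few and unevenly placed. A combined score above 2 was reached by 12 of the 1025 X clusters. On the arms 7 of 1091 on 2R, 7 of 1261 on 3R, 3 of 930 on 2L and 3 of 1028 on 3L reached it. Of the 20 X clusters with the highest combined scores, 11 lay in bins 6 and 18, which hold 55 and 54 of the 1025 clusters. These bins also had the most strong clusters, 11 each, against 1 to 8 in the other full bins. Every full bin held at least 1 strong cluster.

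The leading group of strong sites was in bin 6, where 6 of the 20 lay between 5182842 and 5803374, a span of 620.5 kb. The strongest X cluster, at 5417192 to 5419925, had a replicate 1 score of 3.68 and a replicate 2 score of 3.13. Only 1760 bp beyond it lay the ninth strongest, at 5421686 to 5423938, with 2.18 and 1.92. Both replicates placed this neighbouring pair far above the X medians of their own lists, 0.92 and 0.92. The second strongest, at 5505950 to 5508514, scored 2.93 and 2.62. The third, at 5204780 to 5207821, scored 2.72 and 2.56, and 2 further strong clusters lay within 25 kb of it. The replicates were close together at the third and further apart at the others of this group.

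At a pair of sites in the same bin the replicates were furthest apart. One, at 5800044 to 5803374, reached 3.04 in replicate 1 and 1.83 in replicate 2. These values do not describe the same stretch of DNA. The replicate 1 cluster behind it was 2439 bp wide, from 5800932 to 5803370. The replicate 2 cluster was 10822 bp wide, from 5792500 to 5803321, and also overlapped the neighbouring combined cluster at 5786360 to 5800025, which lies 18 bp away. The cluster at 5182842 to 5185025 scored 2.20 and 1.10 and shared no replicate cluster with a neighbour. The lowest of replicate 2's own top 20 X clusters scored 1.74, below the 1.83 of the first site and above the 1.10 of the second.

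The second group was in bin 18, where 5 of the 20 lay within 291.1 kb, from 17424970 to 17716031. The leading site there, at 17644695 to 17647038, had 2.55 in replicate 1 against 2.11 in replicate 2, and that at 17661124 to 17663666 scored 2.50 and 1.76. At 17424970 to 17427501 the scores were 2.40 and 1.69. These 3 sites, like the other members of the group, were higher in replicate 1. The cluster at 17612346 to 17615659 scored 2.33 and 1.70, and the one at 17713276 to 17716031 scored 2.29 and 1.72. In replicate 1's own list 5 of its top 20 X clusters lay in bin 18 and 6 in bin 6, and in replicate 2's list 2 and 5.

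The other 9 of the 20 were spread over 8 bins. The highest of them, at 3027567 to 3030785, had 2.50 in replicate 1 against 1.84 in replicate 2 and stood 32978 bp from its nearest neighbour. Of the others, those at 19524033 to 19527035 (2.05 and 2.14), 11471966 to 11476799 (2.11 and 2.11) and 6426061 to 6429312 (1.87 and 1.95) had replicate scores within 0.1 of each other. Their surroundings ranged from isolated to crowded. The cluster at 229835 to 232340, with scores of 1.87 and 1.52, had its nearest member 51908 bp away, whereas the one at 12475853 to 12479356, with 1.70 and 1.99, had 9 members within 50 kb and 1 of them 4 bp away. The last 3 were at 2312620 to 2314831 (1.93 and 1.52), 9979261 to 9982116 (1.78 and 1.88) and 422726 to 427123 (2.03 and 1.51). The 20 had a median distance of 1646 bp to the next member.

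**Figure D3:**
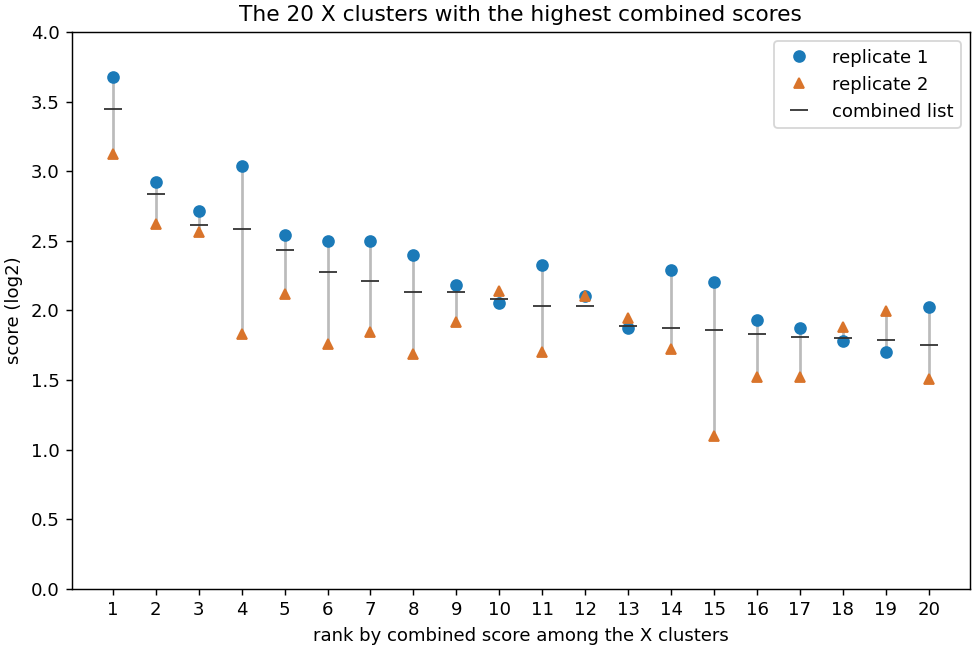
Log2 scores of the 20 X clusters with the highest combined scores, ordered by that score. Circles are replicate 1, triangles replicate 2 and dashes the combined list. Replicate 1 is higher at 15 of the 20, and the widest gaps are at ranks 4 (3.04 and 1.83) and 15 (2.20 and 1.10).

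Each replicate on its own named most of these sites. Of the top 20 X clusters of replicate 1's list 16 overlapped the 20, and of those of replicate 2's list 13 did. All 20 of each overlapped a strong member. The combined list is for both replicates and members must overlap both lists, so part of these overlaps is built in. The 20 were compact, with widths from 2184 to 4834 bp and a median of 2806 bp, and each met a single cluster in each replicate. Width and score nevertheless rose together over all members, with a Spearman correlation of 0.417 given as a description. In the replicates' own X lists it was higher, at 0.739 and 0.736. With the members split by score into 5 groups of 205, the weakest group had a median width of 2249 bp and the middle group 3292 bp. The next group had 3750 bp and the strongest 3753 bp, so width no longer rose between these.

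Strong clusters sometimes followed each other closely. Runs of at least 3 strong members with midpoints at most 50 kb apart, called strong stretches, numbered 8 and held 33 of the 102 strong members. This count rests on the definition. It fell to 1 with the top 5% as strong clusters and to 4 with midpoints at most 25 kb apart, and it was 27 with the top 20%.

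The run with the most strong members had 6, from 17591187 to 17716031 in bin 18, among 12 members in 124.8 kb. The scores of the 6 ranged from 1.37 to 2.55 in replicate 1 and from 1.61 to 2.11 in replicate 2. It held 4 of the 20 strongest sites. A run of 5, from 1902498 to 2037278, had wider strong members of more even strength. These 5 were 4153 to 9656 bp wide, with scores of 1.47 to 1.82 in replicate 1 and 1.45 to 1.78 in replicate 2. With its weaker clusters the run held 14 members, with a median combined score of 1.12, and together they covered 48.8% of its 134.8 kb. In the other run of 5, from 19458407 to 19579096, the strong members had scores of 1.39 to 2.05 and 1.37 to 2.14. This run overlapped the fullest 100 kb window of the X.

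Runs of 4 strong members lay from 7177957 to 7219906 and from 11001176 to 11051217. They were short, at 42.0 and 50.0 kb, and densely covered, to 56.0% and 51.0%. The second had the narrowest range of scores of the 8 stretches in each replicate, with all 4 scores between 1.37 and 1.57 in replicate 1 and between 1.38 and 1.51 in replicate 2, and it ended at an empty stretch of 167.1 kb. The run of 3 that starts with the cluster at 5182842 likewise followed directly on an empty stretch of 199.6 kb. Using each replicate's own list and its own top 10%, replicate 1 gave runs that overlapped 7 of the 8 stretches and replicate 2 gave runs that overlapped 5. The stretches come from the combined list for both replicates, so part of this overlap is built in too.

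Most X clusters were 2 to 5 kb wide, and a small number of wide ones added much of the covered length. The median width was 3107 bp, with quartiles of 2386 and 4559 bp. By number, 77.9% were 2 to 5 kb wide, 17.9% were above 5 and up to 10 kb and 1.66% were below 2 kb. The class above 5 and up to 10 kb held 30.5% of the covered length, and clusters above 10 kb held another 8.89%. The replicates' own clusters were narrower, with medians of 2367 and 2312 bp on the X, which was above the 2173 to 2224 bp of the 4 arms. In the reproducible set the medians of those arms were 2522 to 2646 bp.

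Clusters above 10 kb numbered 27, or 2.63% of the X members, against 1.77% of the whole reproducible set and 0.389 to 1.74% on the 4 arms. The narrowest of them was 10034 bp and the widest cluster below the limit 9973 bp. Their scores ran from 0.83 to 1.54 with a median of 1.16, above the 0.94 of all X members, and 3 of them were strong. Many spanned several replicate clusters. More than 1 replicate cluster lay under 17 of them in replicate 1, under 18 in replicate 2 and under 15 in both. The replicates' own X lists held only 8 and 9 clusters above 10 kb, so the count of wide sites rests on the combined list.

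The widest X cluster, 20036 bp from 3564397 to 3584432, was divided differently in the replicates. It scored 1.07 in replicate 1, where 2 clusters of up to 15691 bp lay under it, and 1.12 in replicate 2, where 5 clusters of at most 4366 bp did. Replicate 1 covered 97.3% of it and replicate 2 covered 87.2%. The cluster at 11479347 to 11496686 was the reverse case, with 3 clusters in replicate 1 and a single one of 16080 bp in replicate 2. Scores there were 1.18 and 1.22.

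The other 8 of the 10 widest were 13511 to 18675 bp wide and met between 2 and 4 clusters in each replicate. Those above 15 kb lay at 10621969 to 10640643 (1.42 in replicate 1 and 1.53 in replicate 2), 1288681 to 1307185 (1.62 and 1.57), 8787471 to 8803284 (1.22 and 1.04), 6242718 to 6258294 (1.36 and 1.43) and 21879016 to 21894546 (1.23 and 1.09). The rest lay at 14971544 to 14986369 (1.21 and 1.37), 5786360 to 5800025 (1.62 and 1.83, the latter from the replicate 2 cluster it shares with its neighbour) and 9472055 to 9485565 (1.19 and 1.18). Over these 10 clusters the SD between replicate scores was at most 0.15, while the number of replicate clusters beneath them was equal in only 1, the one at 21879016.

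A single cluster of each replicate lay under 897 members (87.5%), 7 of them wider than 10 kb, and the borders of these were placed much alike. Among the 895 of these that shared no replicate cluster with a neighbour, the start differed by a median of 102 bp and the end by 95 bp. In 9 of 10 cases the start differed by no more than 554 bp. The midpoints differed by a median of 88 bp, which is small beside the median width of 3107 bp. Widths in the replicates had a Spearman correlation of 0.831 across these members.

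Neighbouring clusters were mostly a few kilobases apart, but 25.2% of the arm lay in gaps above 100 kb between reproducible clusters. The median distance from the end of a member to the start of the next was 5722 bp, with quartiles of 1929 and 17500 bp, and 162 of 1024 distances (15.8%) were at most 1 kb. On the 4 arms the median distance was 7667 to 8549 bp, so the typical gap was shorter on the X. X clusters were also wider, with a median of 3107 bp against 2522 to 2646 bp. Whether their width bears on the gaps was not tested. Counted per Mb, the X with 45.7 clusters lay below 2R (51.6), near 3R (45.2) and above 2L (40.4) and 3L (41.9). Distances above 100 kb numbered 34 on the X, and 26 and 31 in the own X lists of replicates 1 and 2. Between reproducible clusters such distances took up 24.4% of 2L, 24.0% of 3L and 21.2% of 3R, shares near that of the X. On 2R they took up 13.0%. Short spacing within groups and long gaps thus occurred on the same arm.

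The longest empty stretch, 461.0 kb from 21943643 to 22404598, lay at the centromeric end. It was not empty in every list. The combined list had 11 clusters in it, of which the highest scored 0.72, and the replicates' own lists had 2 and 3, with scores up to 0.54 and 0.83. The part of it without a cluster of any list was 150.9 kb. With either replicate alone required the longest stretch on the X was the next one, of 338.3 kb.

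That second stretch, from 21505136 to 21843403, was the longest in each replicate's own list, at 339.0 and 338.3 kb. Neither replicate had a cluster of its own within it. The combined list had 2, which scored 1.82 and 1.16. The clusters on both sides of it scored 1.27 and 1.35, above the X median of 0.94. The gap was thus bordered by sites of more than middling strength.

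The clear part was longest elsewhere. The stretch from 14217663 to 14473523, 255.9 kb in bin 15, had no replicate cluster and a single combined cluster, and 227.6 kb of it had no cluster of any list, the longest such part on the X. The stretch from 19859583 to 20051781, 192.2 kb, had no replicate cluster either, but 3 combined clusters left at most 94.0 kb of it clear. The others were at 7235905 to 7501321 (265.4 kb), 12098800 to 12356083 (257.3 kb), 18800001 to 19046203 (246.2 kb), 2783466 to 2992342 (208.9 kb), 21261025 to 21461757 (200.7 kb) and 4983198 to 5182841 (199.6 kb). Each of these held 1 or 2 clusters found in a replicate's own list, with no more than 1 replicate involved. The last of them held 9 combined clusters with scores up to 0.81.

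**Figure D4:**
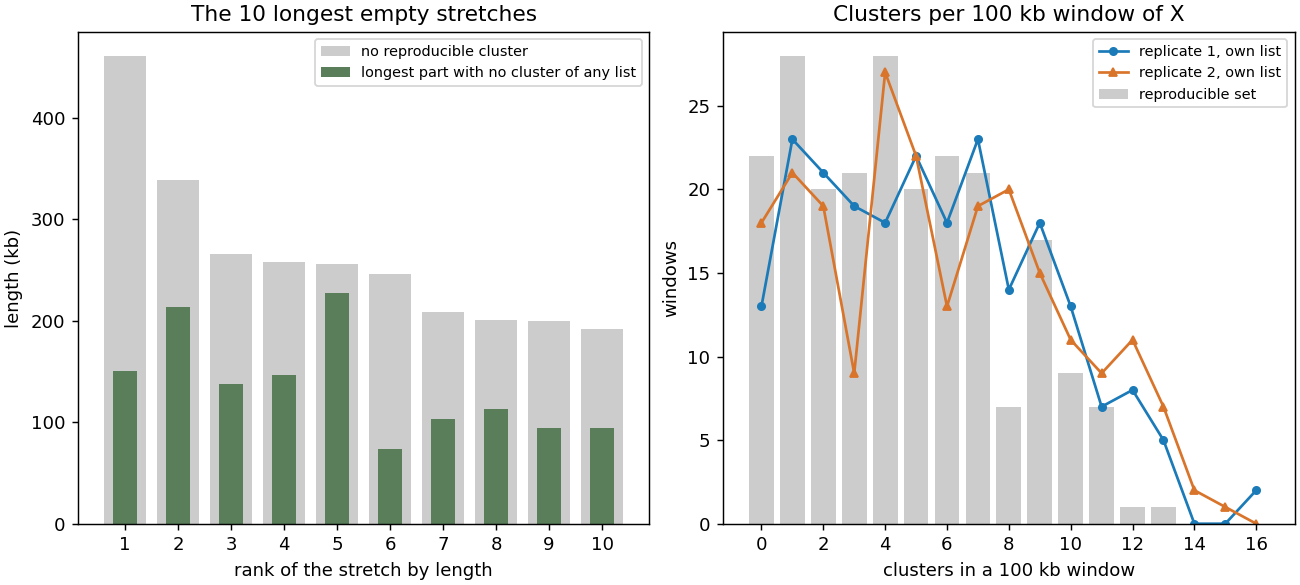
Left, length in kb of the 10 longest stretches of X without a reproducible cluster (wide bars) and of the longest part of each without a cluster of any list (narrow bars). Right, number of 100 kb windows by the clusters they hold, for the reproducible set and each replicate's own list. The longest stretch is 461.0 kb but its clear part is 150.9 kb, while stretch 5 is clear over 227.6 of 255.9 kb, and 22 windows hold no reproducible cluster.

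Scores in the replicates rose together over the 1025 clusters, with a Spearman correlation of 0.779 and a Pearson correlation of 0.803 across clusters, which share 1 pair of libraries. The median SD between replicates at a cluster was 0.088, and 9 of 10 clusters had an SD of no more than 0.24. The lists may be scaled differently, so differences are given with the median difference over the whole reproducible set, 0.029, subtracted. On that scale the median X cluster was lower in replicate 1 by 0.063. It was higher in replicate 1 by 0.0075 to 0.019 on the 4 arms. The median was below 0 in 21 of the 22 full bins of the X, and in 16 of them with nothing subtracted.

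Replicate 1 was more often the higher one among stronger clusters. It was higher at 24.9% of the weakest of the 5 score groups, at 46.3% of the strongest and at 35.6 to 37.6% of those between. The median difference was below 0 in all 5 groups, from -0.096 in the weakest to -0.023 in the strongest. Replicate 1 exceeded replicate 2 by more than 0.5 at 22 clusters (2.15%), against 3.20% of the reproducible set. Of those 22, 16 were in the strongest group. In the other direction replicate 2 exceeded replicate 1 by more than 0.5 at 11 clusters (1.07%), against 0.364% of the reproducible set. These 11 were 55.0% of the 20 clusters of that kind in the genome, while the X holds 18.7% of the set. With the median difference of the X clusters alone subtracted, a choice made after the values were seen, the counts were 25 and 4, so the second count rests on the centring.

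**Figure D5:**
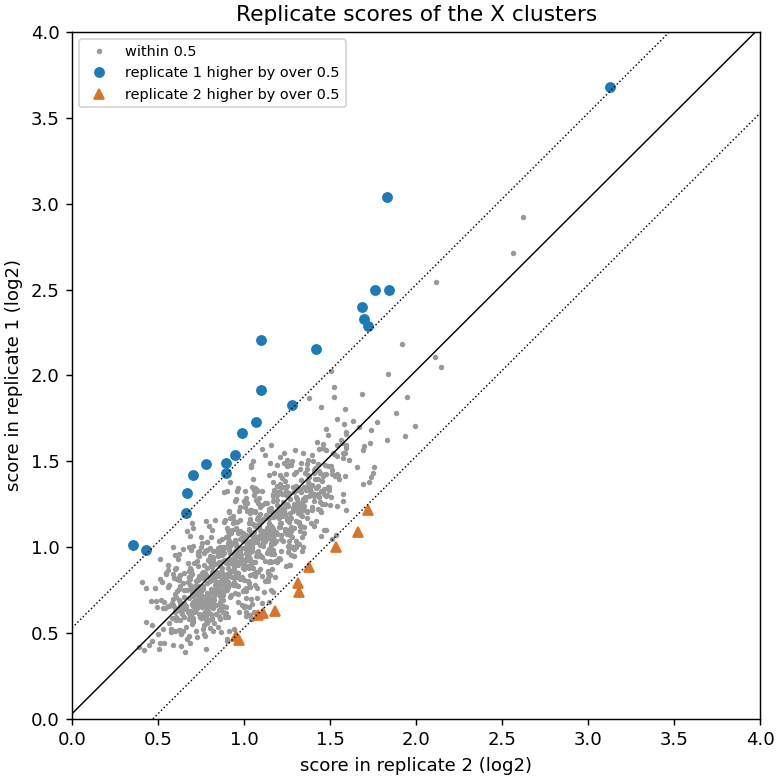
Log2 scores of the 1025 X clusters in replicate 2 (horizontal) and replicate 1 (vertical). The solid line is the median difference over the whole reproducible set and the dotted lines lie 0.5 to either side. The 22 circles, at which replicate 1 is higher, include the highest score of all and have a median combined score of 1.54, while the 11 triangles, at which replicate 2 is higher, have a median of 0.98, and the ranges overlap.

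After the clusters at 5800044 and 5182842, described above, the largest excess of replicate 1 was at 15546528 to 15548811 (1.91 against 1.10) and at 15486666 to 15490177 (2.16 against 1.42), both in bin 16. After them came the cluster at 17661124. For replicate 2 the largest excess was smaller. It was at 19396646 to 19400855, with 0.74 in replicate 1 and 1.32 in replicate 2. The next were at 7216825 to 7219906 (1.09 and 1.66), 12927601 to 12929722 (0.63 and 1.18), 6633770 to 6636424 (1.00 and 1.54) and 1815909 to 1818198 (0.79 and 1.31). With the median difference subtracted, the largest excess was 0.61 for replicate 2 and 1.18 for replicate 1.

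No member met the rule by only a few bases. The smallest overlap of a member with a replicate was 1191 bp, 47.2% of the cluster at 8474497 to 8477020. The nearest miss, at 13299839 to 13302835, lay 30 bp from a cluster of the replicate it lacked. Of the 667 X clusters outside the set, 126 met replicate 1 alone, 143 met replicate 2 alone and 398 met neither. They were short, with a median of 1339 bp for those that met neither, and weak. Only 6 scored above 1, and all 6 met neither replicate. The highest of them, 1001 bp wide at 18648385 to 18649385, scored 2.97, more than all but the strongest X member, and lay 27107 bp from the nearest replicate 1 cluster and 27080 bp from the nearest replicate 2 cluster.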

How the data were processed

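Sfmbt ChIP-seq was done on sonicated, cross-linked chromatin of adult heads with 2 ChIP replicates and 1 input each, per the labels' protocols. Bowtie 0.12.7 aligned the reads, per the submitters' processing notes, and coordinates are of FlyBase release 5, per the file headers. No source used here names the program that called clusters, a cutoff, or how the combined list was made. The authors deposited 1 list per ChIP replicate, called per sample, and 1 for both, with a log2 score per cluster. The log2 scale was settled from the values, since powers of 2 of score differences within a list were whole-number ratios, within a tolerance of 1e-11 and for denominators of at most 3000, for 98.7% of combined, 99.9% of replicate 1 and 100.0% of replicate 2 clusters, and under 1% with base e or base 10. Read depth is unknown.

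All clusters were kept as deposited. Bins and windows took clusters by midpoint, and where several clusters of a replicate overlapped a member the highest score was taken. The regions named are the 20 highest-scoring members, the 5 fullest, emptiest and highest-scoring 1 Mb bins, the 5 fullest 100 kb windows, the 5 strong stretches with most members, the 10 longest empty stretches, the 10 widest members and the 5 largest replicate differences each way. Regions outside these were named after their values were seen. The members and these rules were chosen with earlier results of these data known. The code was tested on simulated data. Tables were made in Python 3.11.15 with pandas 2.3.3 and NumPy 2.4.6, intervals with SciPy 1.17.1, and plots with matplotlib 3.10.9. Genes and sequences are not given, because the gene table used is of release 6.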

Additional observations from a re-analysis of the deposited data

How the results depend on the processing

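Of 78 values computed under other settings for 10 results, 40 stayed within 1.5 times the count or 1 SD between replicates, and 38 did not, many because that SD was very small. Without one replicate's overlap required, the covered share was 19.1 to 19.3%, the median score 0.88 to 0.89, the median width 2911 to 2915 bp, the longest empty stretch 338268 bp in both cases, and 13 to 18 windows were empty. With 50% of the cluster covered in each replicate, the covered share was 16.7%, the median score 0.96 and the median width 3038 bp, and with scores at or above the list median these were 16.8%, 0.97 and 3178 bp. All combined-list clusters gave 1692 clusters, 23.04% covered, a median score of 0.68, a median width of 2400 bp, 4 empty windows, 20 strong stretches and a longest gap of 227647 bp. Replicate 1's own list gave 16.2%, 0.92, 2367 bp, 8 clusters above 10 kb, 13 empty windows and a gap of 339049 bp, and replicate 2's gave 16.2%, 0.92, 2312 bp, 9 such clusters, 13 strong stretches and a gap of 338315 bp. Strong stretches numbered 1, 27 and 4 with the top 5%, the top 20% and a 25 kb limit. Replicate differences above 0.75 were seen at 3 clusters, against 33 above 0.5. The cause of these shifts was not tested beyond the number of clusters each setting admits. Leaving out members that share a replicate cluster, chosen after seeing the data, left 32. No paired analysis was possible because the 2 inputs have no cluster list of their own and no result comes from a test.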

Other observations

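The 6 X clusters that scored above 1 without a partner in either replicate were short, at 1001 to 1259 bp. Beside the one at 18648385, with 2.97, they lay at 21601498 (1.82), 196678 (1.33), 115 (1.25), 14445310 (1.20) and 21628980 (1.16). The next such cluster outside the reproducible set scored 0.97. The one at 115 to 1115 lay at the very start of the X sequence, 12062 bp before the first replicate 1 cluster. Of the other 5, 3 lay inside 2 of the 10 longest empty stretches, those that begin at 21505136 and 14217663. The highest score of clusters without any partner was also 2.97 on 3R, and 1.82 on 2L, the values of the first and second of these X clusters.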
